A study of Saccharomyces cerevisiae with 8 samples.

Results

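The transcripts of 2 strains of Saccharomyces cerevisiae that make different forms of the transcription factor Gcr1 were compared at 12 h of culture, after the diauxic shift. The comparison used 4 of the 8 libraries of the study, 2 from strain U and 2 from strain S, and all values are given as S against U. The 4 libraries taken at 6 h, in exponential phase, were used as the reference for growth on glucose and to estimate the spread between libraries. Strain U is JHY9100, with the deletion 1-574 in GCR1, and makes the form named Gcr1(U). Strain S is JHY9200, with the deletion 4-742 in GCR1, and makes Gcr1(S). The labels do not say from where these positions are counted. Both strains have the BY4741 background, so that both groups carry an edited GCR1 and neither is the unedited parent. Cultures of 10 mL YPD with 2% glucose were started at an OD600 of 0.5 in 50 mL flasks and shaken at 170 rpm and 30 °C. No label says that replicates are separate cultures, so p-values measure the spread between these samples, which may be technical.

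Yeast on glucose breaks the sugar down to pyruvate by glycolysis and forms ethanol from it. When glucose runs out, at the diauxic shift, the cells turn to the ethanol they made, respire it, and rebuild sugars by gluconeogenesis, which runs many steps of glycolysis backwards. Gcr1 is the main activator of the glycolytic genes. It works with its partner Gcr2 and binds the short motif CTTCC, often beside a site of Rap1, a general regulatory factor that recruits it. The gene of Gcr1 has an intron close behind its start codon, and the names of its forms refer to spliced (S) and unspliced (U) transcripts.

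The edited gene was examined first. GCR1 (YPL075W) lies on the plus strand of chromosome XVI from 412254 to 415362 of the R64 assembly, the same assembly as the sacCer3 build of the deposited values. Its first exon holds 8 coding bases, its intron of 751 bases runs from 412262 to 413012, and its second exon from 413013 to 415362. The ends of the intron are shown because both deletions are in this gene and the forms are named for its splicing. In the unedited sequence of RefSeq (R64) below, capitals mark the first 6 bases of the intron in the first stretch. In the second they mark the match to the branch sequence TACTAAC, which is followed by 50 bases of intron, and the last 3 bases of the intron.
Start of GCR1, chrXVI:412254-412302, plus strand: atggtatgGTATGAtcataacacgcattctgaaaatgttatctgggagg
End of the intron, chrXVI:412953-413024, plus strand: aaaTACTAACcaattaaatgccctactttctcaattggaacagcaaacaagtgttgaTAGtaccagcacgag

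At 12 h GCR1 was listed at 30.2 and 32.9 FPKM (fragments per kilobase of transcript, scaled to library size) in U and at 104 and 89.0 FPKM in S. The S libraries both stood above the U libraries. The log2 fold change was 1.58 (SE 0.42, 95% interval 0.58 to 2.58), and it did not pass limma's test (adjusted p = 1, unadjusted p = 0.00804). At 6 h the same gene stood at 60.9 and 40.2 FPKM in the U libraries and at 143 and 58.9 FPKM in the S libraries, where the groups overlapped. FPKM is divided by a gene length, and the sources used here do not give the one used for GCR1. Its value thus also carries any change in length of the edited transcripts. GPI2 (YPL076W), which encodes a subunit of the enzyme for the first step of GPI anchor synthesis, lies 968 bases upstream of GCR1 on the same strand, from 410443 to 411285. It reached 35.1 and 44.0 FPKM in U and 99.8 and 92.1 FPKM in S at 12 h (log2 fold change 1.27, SE 0.17, adjusted p = 0.0959 by limma). The groups did not overlap, and the log2 fold change of GPI2 at 6 h was 0.22. YTA6, the next gene downstream of GCR1, had a log2 fold change of -0.04.

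The partners and fellow regulators of Gcr1 had log2 fold changes between -0.21 and 0.09. Of the 8 genes on the list, GCR1 included, 0 were called. GCR2, the partner of Gcr1, had 66.8 and 72.2 FPKM in U against 70.6 and 62.6 FPKM in S (log2 fold change -0.06, 95% interval -0.39 to 0.27). RAP1 stood at 31.2 and 31.7 FPKM in the U libraries and at 30.7 and 32.0 FPKM in the S libraries (-0.01, 95% interval -0.51 to 0.49). In both genes the libraries of the strains overlapped. TYE7, a basic helix-loop-helix activator of glycolytic genes, had a log2 fold change of -0.21 (95% interval -0.69 to 0.27), and PDC2, an activator of PDC1, one of -0.01.

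The promoters of the pathway were searched for the motif of Gcr1. CTTCC was sought on both strands (GGAAG on the other) within 800 bases before each start codon, and the motif of Rap1 was written as ACCCANACA (TGTNTGGGT). This window and this spelling were chosen after the matches were seen, from windows of 250 bases before to 50 after the start codon, 500 and 800 bases and from 4 spellings (ACACCC, ACCCANNCA and ACACCCA besides). CTTCC alone was in 4910 of 6002 promoters (81.8%), in 13 of the 14 genes of glycolysis and ethanol formation with a difference of at least 2-fold at 12 h, and in 4 of the 5 other glycolysis genes. ACCCANACA was in 4.22% of all promoters, in 7 of the 14 genes and in 1 of the 5, HXK1. Both motifs within 30 bases of each other were in 37 promoters (0.616%), in 5 of the 14 genes and in 0 of the 5. In the window of 500 bases the pair was in 0.45% of promoters and in 3 of the 14 genes, and in the shortest window in 0.183% and in 0 of the 14. The 5 stretches are shown because they hold the pair in front of genes at the top of the comparison. Capitals mark both motifs on the strand of the gene, with GGAAG where CTTCC is on the other strand, with 10 bases on either side.
PGK1, chrIII:137264-137312, plus strand, 482 to 434 bases before the start codon: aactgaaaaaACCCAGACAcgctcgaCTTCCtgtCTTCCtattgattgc
GPM1, chrXI:164728-164789, minus strand, 404 to 343 bases before the start codon: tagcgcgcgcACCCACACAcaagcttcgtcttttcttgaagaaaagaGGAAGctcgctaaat
ENO1, chrVII:1000434-1000478, plus strand, 493 to 449 bases before the start codon: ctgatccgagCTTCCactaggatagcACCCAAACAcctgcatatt
CDC19, chrI:71124-71162, plus strand, 662 to 624 bases before the start codon: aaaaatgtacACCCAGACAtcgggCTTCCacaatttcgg
ADH1, chrXV:161238-161288, minus strand, 694 to 644 bases before the start codon: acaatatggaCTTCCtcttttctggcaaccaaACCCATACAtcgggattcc
A match describes these letters and does not by itself show binding, which was not tested. Among the genes called at 12 h, CDC19 held the pair in this window with this spelling. With each of the other 3 spellings, PGI1, also called, held the pair beside CDC19. The pair was then in 4 of the 14 genes for ACACCC (2.1% of all promoters), 6 for ACCCANNCA (1.57%) and 2 for ACACCCA (0.8%). It was in 0 of the 5 other genes with each of these spellings.

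The libraries were alike in their overall values. The summed FPKM ran from 1504396 to 1543337 at 12 h. The number of fragments behind a value is unknown. As a rough guide to relative depth, the lowest 1% of values above 0, multiplied by gene length in kilobases, reached up to between 0.179 and 0.300 over the 8 libraries for genes of 300 to 900 bases, a ratio of 1.67. LEU2, MET17 and URA3, which are deleted in BY4741, were listed at 0 in every library, and HIS3, whose deletion in BY4741 is partial, at 68.8 to 111 FPKM at 12 h. Among markers of the mating type a of BY4741, STE2, the receptor of alpha factor, was listed at 208 to 634 FPKM at 12 h, and the short gene MFA1 at 0 in replicate 2 of S and at 151 to 837 FPKM in the other 3. Of the 4 alpha markers, STE3 was listed at 2.60 to 8.22 FPKM and MF(ALPHA)1 at 5.46 to 10.39 FPKM at 12 h. The others stood higher, MF(ALPHA)2 at 20.2 to 28.5 FPKM and SAG1 at 56.1 to 64.45 FPKM. The values of SAG1 lay within the range of the a marker STE6 (33.6 to 86.8 FPKM).

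After the diauxic shift 12 of the 17 glycolysis transcripts stood at least 2-fold higher in S than in U, of which 5 passed the test, while most other transcripts lay within 1.5-fold. Of 6339 rows of the table tested with limma, 8 were called at an adjusted p under 0.05 (0.126%), of which 7 were higher in S (0.11%) and 1 was lower, and 61 had an unadjusted p under 0.05. FPKM describes the RNA of a whole culture, so a difference in all cells and one in part of them cannot be told apart. Of the 7 rows, 5 were glycolysis genes, CDC19, ENO2, TDH3, TDH2 and PGI1. The others were YAL037C-B, a dubious reading frame over CDC19, and YCR038W-A. The median log2 fold change of all rows was -0.04, and 97.0% of rows lay within 1.5-fold. A difference of at least 2-fold, with 10 FPKM or more on average in the higher strain and no 0 at 12 h, was found for 29 rows, and in 24 of them the value was higher in S. Without the limits on level and on 0, 82 rows differed at least 2-fold, 45 higher in S and 37 lower. Leaving out either U library of 6 h left 1 call, and leaving out either S library of 6 h left 2. Among the 12 h libraries, the count was 4 when replicate 1 of U was left out, 15 for replicate 2 of U, 7 for replicate 1 of S and 1 for replicate 2 of S. When limma was given the 4 libraries of 12 h and no others, it called 0 rows, with 103 at an unadjusted p under 0.05.

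**Figure D1:**
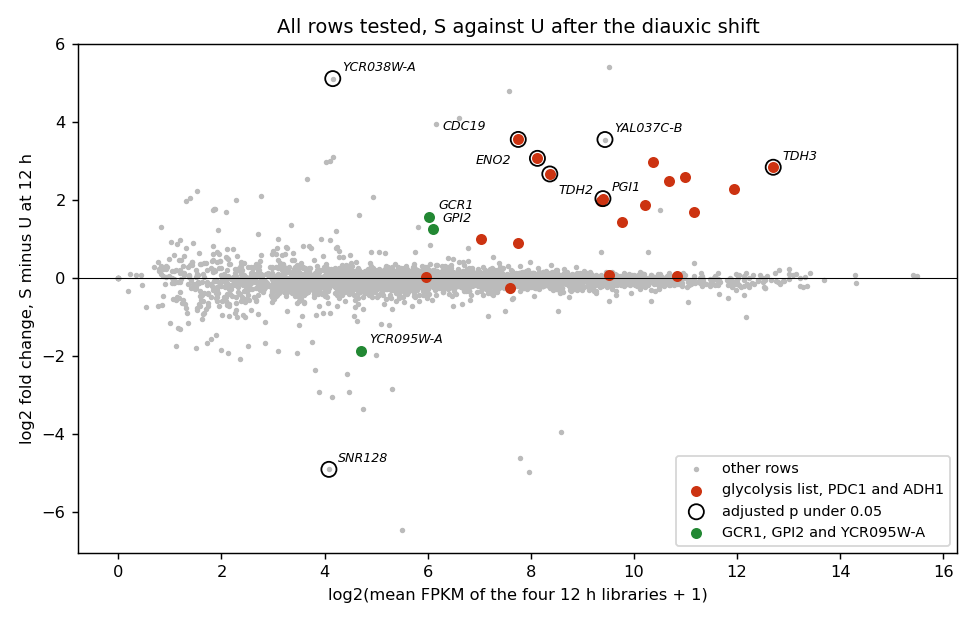
Each point is 1 of the 6339 rows tested, with the log2 of the mean FPKM at 12 h plus 1 on the x axis and the log2 fold change of S against U at 12 h on the y axis. Red points are the glycolysis genes with PDC1 and ADH1, green points are GCR1, GPI2 and YCR095W-A, and rings mark the 8 rows called by limma. Most red points lie above the cloud, from 0.89 (PFK1) to 3.56 (CDC19), and 4 lie near 0.

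The upper steps of glycolysis, which trap and split the sugar, differed by gene. The hexokinases, which phosphorylate glucose, had log2 fold changes between -0.25 and 0.08. GLK1, glucokinase, reached 1976 and 1618 FPKM in U and 2062 and 1687 FPKM in S at 12 h. HXK1 had 938 and 462 FPKM in U against 1054 and 456 FPKM in S. In GLK1 and HXK1 the strains overlapped, and the log2 fold changes were 0.06 (95% interval -2.76 to 2.88) and 0.08 (-2.58 to 2.73). These intervals are wide, but they pool the spread of all 4 groups and so also carry that at 6 h. At 6 h GLK1 stood at 683 and 155 FPKM in U and at 724 and 63.1 FPKM in S. HXK1 stood at 1236 and 416 FPKM in U and at 1570 and 173 FPKM in S at 6 h. All intervals and SEs given here pool the groups in this way. HXK2, the hexokinase of growth on glucose, stood at 189 and 229 FPKM in the U libraries and at 185 and 166 FPKM in the S libraries, a log2 fold change of -0.25 (95% interval -0.68 to 0.18). HXK2 was the single member of the 17 glycolysis genes with both S libraries below both U libraries, beside 14.3% of all rows tested. Its nearest libraries of the 2 strains were close, at 185 FPKM in S and 189 FPKM in U.

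PGI1, phosphoglucose isomerase, was higher in S. It reached 232 and 297 FPKM in U and 1117 and 1049 FPKM in S, so that the groups were far apart. The log2 fold change was 2.04 (SE 0.17, adjusted p = 0.019 by limma), or 4.11-fold. PFK1 and PFK2 encode the subunits of phosphofructokinase, the committed step. PFK1 had 133 and 168 FPKM in U against 261 and 296 FPKM in S, and PFK2 had 77.0 and 94.0 FPKM in U and 170 and 176 FPKM in S. Both subunits had S above U in both libraries, and neither passed limma's test, with a log2 fold change of 0.89 for PFK1 (adjusted p = 0.543) and 1.02 for PFK2 (adjusted p = 0.261). These were the smallest values among the 13 glycolysis genes whose S libraries both stood above the U libraries. FBA1, the aldolase, stood at 807 and 2108 FPKM in the U libraries and at 6485 and 6256 FPKM in the S libraries. The U libraries of FBA1 were far apart from each other, yet both lay below the S libraries, and the log2 fold change was 2.29 (SE 0.42, adjusted p = 0.426). TPI1, triose phosphate isomerase, reached 788 and 1458 FPKM in U and 3516 and 3388 FPKM in S, a log2 fold change of 1.69 (adjusted p = 0.345).

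The lower steps, from glyceraldehyde-3-phosphate to pyruvate, held the largest differences. TDH3, the main glyceraldehyde-3-phosphate dehydrogenase, had 1482 and 1774 FPKM in U against 12513 and 10856 FPKM in S, and was higher in S (log2 fold change 2.84, SE 0.28, adjusted p = 0.0306 by limma). TDH2, a second gene of the enzyme, stood at 72.4 and 106 FPKM in the U libraries and at 636 and 503 FPKM in the S libraries (log2 fold change 2.67, SE 0.23, adjusted p = 0.019). TDH1, the third gene, reached 499 and 395 FPKM in U and 1700 and 872 FPKM in S, with a wide interval around its log2 fold change of 1.45 (-0.58 to 3.48). All TDH genes thus had S libraries above U libraries, and TDH2 and TDH3 passed the test. PGK1, phosphoglycerate kinase, had 376 and 669 FPKM in U against 1903 and 1776 FPKM in S (log2 fold change 1.87, adjusted p = 0.735). GPM1, phosphoglycerate mutase, stood at 444 and 730 FPKM in the U libraries and at 4010 and 2951 FPKM in the S libraries (log2 fold change 2.59, adjusted p = 0.0776). In PGK1 and GPM1 the lower S library was above the higher U library, though neither passed the test.

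Enolase and pyruvate kinase close the pathway. ENO2, the enolase of growth on glucose, reached 43.1 and 78.0 FPKM in U and 528 and 466 FPKM in S and was higher in S (log2 fold change 3.07, SE 0.30, adjusted p = 0.0306 by limma). ENO1 had 252 and 332 FPKM in U against 2789 and 1878 FPKM in S (log2 fold change 2.98, SE 0.39, adjusted p = 0.0959). The enolase genes thus had fold changes of like size, and ENO2 passed the test. CDC19, the main pyruvate kinase, had the largest log2 fold change of the pathway. It stood at 25.9 and 41.2 FPKM in the U libraries and at 416 and 378 FPKM in the S libraries, 11.8-fold higher in S (log2 fold change 3.56, SE 0.23, adjusted p = 0.00877). PYK2, the minor pyruvate kinase of cells without glucose, reached 57.0 and 64.0 FPKM in U and 56.0 and 68.3 FPKM in S, and the groups overlapped (log2 fold change 0.03, 95% interval -1.78 to 1.85). The interval of PYK2 also carries the spread at 6 h, with 47.0 and 17.0 FPKM in U and 47.5 and 9.54 FPKM in S. The coding sequences of TDH2 and TDH3 are alike, as are those of ENO1 and ENO2, so the split of reads within each pair is uncertain.

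**Figure D2:**
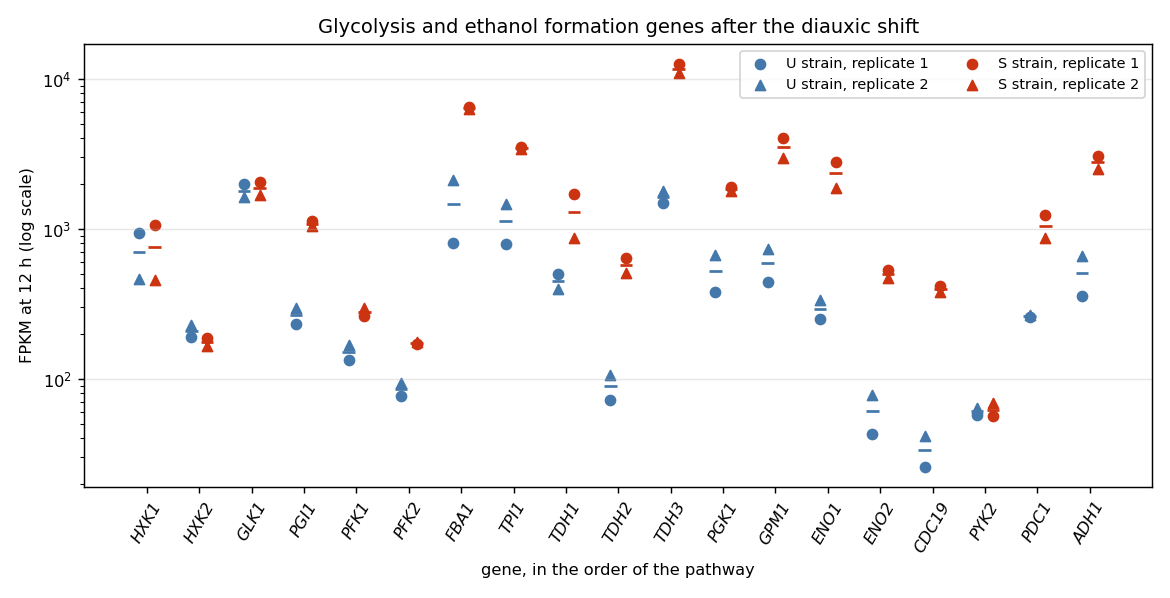
FPKM at 12 h on a log axis for the 17 glycolysis genes in pathway order and for PDC1 and ADH1, with U in blue and S in red, circles for replicate 1, triangles for replicate 2 and a short line at the group mean. From PGI1 on, the S libraries lie above the U libraries in every gene shown but PYK2, with the widest gap at CDC19 (33.6 FPKM on average in U and 397 FPKM in S), while HXK1, HXK2, GLK1 and PYK2 lie at about the same height.

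The calls rested on 2 libraries a strain and on the spread of all 4 groups. When the 8 libraries were left out in turn, CDC19 passed in 4 of the 8 fits (adjusted p up to 0.127), TDH3 in 0 (adjusted p from 0.0766 to 0.255), and ENO2, TDH2 and PGI1 in 1 fit each (adjusted p up to 0.255, 0.173 and 0.180). Of the 12 glycolysis genes with a difference of at least 2-fold, 0 changed direction under any setting tried.

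Of the 17 glycolysis genes, 5 were called higher in S and 0 lower, beside 0.11% of all rows called higher. Both S libraries stood above both U libraries in 13 of the 17, beside 6.36% of all rows tested. The median log2 fold change of the list was 1.87, or 3.66-fold, beside -0.04 over all rows. The summed FPKM of the 17 genes made up 0.552% and 0.688% of the library total in U and 2.58% and 2.21% in S at 12 h, means of 0.620% ± 0.097 and 2.39% ± 0.26 (SD, n = 2 each). The shares differed 3.86-fold. A two-sided exact permutation test gave p = 0.333, the smallest that 2 libraries against 2 can give, so it cannot decide on a difference. At 6 h the same shares were 4.13% and 3.30% in U and 4.70% and 3.76% in S, where the strains overlapped (exact permutation p = 0.667).

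PDC1 and ADH1 stood apart from the other genes of ethanol formation. PDC1, the main pyruvate decarboxylase, had 256 and 264 FPKM in U against 1237 and 861 FPKM in S, with 1.98 as its log2 fold change (SE 0.24, adjusted p = 0.0776 by limma). ADH1, the alcohol dehydrogenase that forms ethanol, stood at 354 and 663 FPKM in the U libraries and at 3036 and 2499 FPKM in the S libraries (log2 fold change 2.50, SE 0.31, adjusted p = 0.0807). Both had S above U in both libraries and missed the threshold. The other 6 of the 8 genes on the list, PDC5, PDC6, ADH3, ADH4, ADH5 and SFA1, had log2 fold changes from -0.16 (ADH5) to 0.22 (PDC6). Of the 8 genes 0 were called. ADH3 stood above ADH1 in U, with 1218 and 1625 FPKM in U and 1204 and 1576 FPKM in S. ADH2, which oxidises ethanol after the shift, reached 357 and 2547 FPKM in U and 200 and 2043 FPKM in S. The replicates of ADH2 differed far more than the strains, and its log2 fold change was -0.57 (SE 1.30). Reads of ADH1 and ADH2 may be shared, since their sequences are alike, which was not tested.

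The balance between genes of 1 enzyme differed in some steps and was alike in others. CDC19 made up 31.3% and 39.2% of the summed FPKM of CDC19 and PYK2 in U at 12 h, and 88.1% and 84.7% in S. At 6 h it made up 96.5% to 99.5% in the 4 libraries. By these values the minor gene PYK2 held the larger share in U after the shift but not in S. The share leaves out YAL037C-B, the dubious frame over CDC19, at 80.8 and 142 FPKM in U and 1343 and 1205 FPKM in S. Its reads cannot be told apart from those of CDC19, so CDC19 may be understated. PYK2 stood at 57.0 and 64.0 FPKM in U, and a share that counts those reads was not tested. TDH3 made up 72.2% and 78.0% of the TDH genes in U and 84.3% and 88.8% in S. The enolases, in contrast, were split alike in the strains, with ENO1 at 85.4% and 81.0% of both genes in U and at 84.1% and 80.1% in S. ENO1 had made up 13.9% to 22.2% at 6 h, so that the minor enolase of growth on glucose was the major one at 12 h in every library. HXK2 made up 6.10% and 9.91% of the hexokinase genes in U and 5.62% and 7.18% in S. PDC1 made up 91.9% and 92.6% of the pyruvate decarboxylase genes in U and 98.1% and 97.2% in S. These shares were not tested for a difference.

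The strain difference at 12 h was set against that at 6 h, to ask how far it belongs to the time after the shift. At 6 h 0 of the 17 glycolysis genes were called, beside 5 of all rows (0.0789%), and their median log2 fold change was 0.14. Both S libraries of 6 h were nonetheless above both U libraries in 7 of the 17, PGI1, PFK1, FBA1, TPI1, TDH2, ENO2 and CDC19, beside 5.77% of all rows. CDC19 had 1279 and 1384 FPKM in U against 1785 and 1800 FPKM in S at 6 h. Its level at 12 h was 2.52% of that at 6 h in U and 22.1% in S. TDH3 was at 12.8% of its 6 h level in U and at 84.7% in S, PGI1 at 19.3% and 72.7%, and ENO2 at 1.06% and 6.39%. ENO1 was at 20.4% in U and at 134% in S. In the test of the difference between the times, 5 rows were called (0.0789% of 6339) and 51 had an unadjusted p under 0.05, and 0 of the glycolysis genes were among the 5. The difference between the times was 3.13 on the log2 scale for CDC19 (95% interval 2.35 to 3.91, adjusted p = 0.0531), 2.70 for TDH3 (1.75 to 3.65, adjusted p = 0.215), 1.92 for PGI1 (1.33 to 2.51, adjusted p = 0.135), 2.61 for ENO2 (1.57 to 3.65, adjusted p = 0.359) and 2.26 for TDH2 (1.49 to 3.03, adjusted p = 0.215). The intervals of these genes lay above 0, but the adjusted p did not pass the threshold. These were the glycolysis genes called at 12 h, and the difference between the times holds the same 12 h values. That choice favours intervals above 0. CDC19 passed with a pseudocount of 5 FPKM (adjusted p = 0.0453), with quantile normalization (0.0343) and without replicate 1 (0.0436) or replicate 2 (0.0137) of U at 12 h, and its adjusted p ran from 0.0137 to 0.345 over all settings. Without replicate 2 of U at 12 h, FBA1 (adjusted p = 0.0113) and ADH1 (0.0492) passed too. With all rows that hold a 0 left out, 0 rows were called (43 at an unadjusted p under 0.05), since all 5 rows were listed at 0 somewhere.

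**Figure D3:**
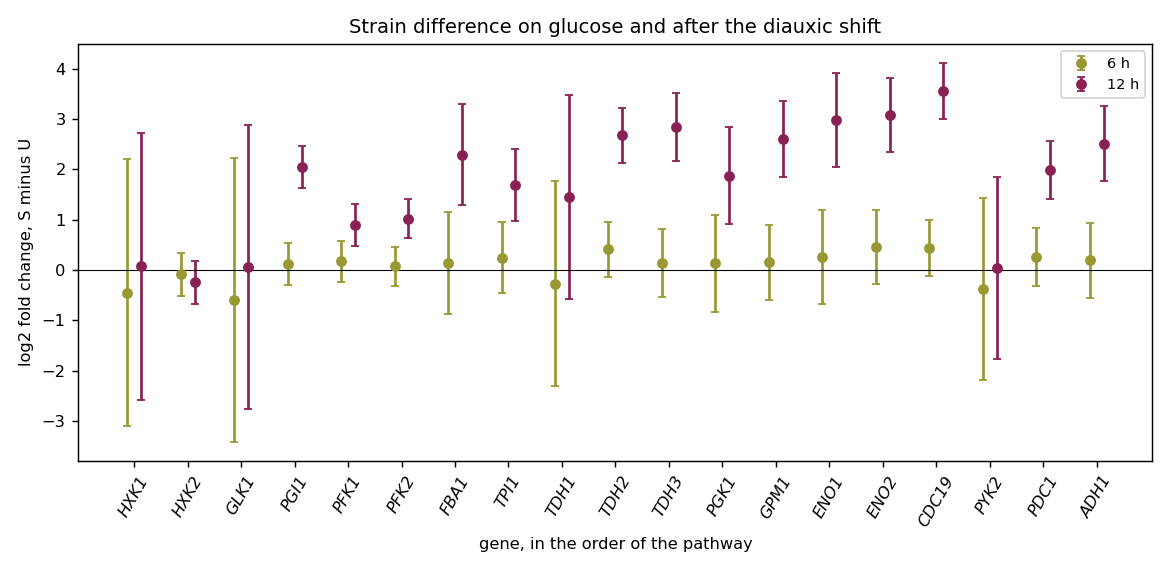
Log2 fold change of S against U at 6 h (olive) and at 12 h (purple) for the glycolysis genes, PDC1 and ADH1, with bars for the 95% interval of limma's fit. At 6 h all intervals include 0, and at 12 h the genes from PGI1 to CDC19 lie between 0.89 and 3.56 with intervals above 0, except that of TDH1.

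Enzymes beside the main pathway, such as those that tune phosphofructokinase, had log2 fold changes from -0.16 to 0.34. Of the 6 tested genes on this list 0 were called. PFK26, which makes the activator of phosphofructokinase, stood at 107 and 117 FPKM in the U libraries and at 108 and 118 FPKM in the S libraries (log2 fold change 0.02). FBP26, which degrades it, had -0.08, and GPM2, a homolog of the mutase, 0.34 (95% interval -2.13 to 2.81). ERR1 and ERR2, enolase-related genes near chromosome ends, were listed at 0 in every library. ERR3, of the same family, stood at 0.32 and 0.33 FPKM in U and at 0.72 and 0.75 FPKM in S at 12 h. It averaged less than 1 FPKM and was not tested.

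The transcripts for the use of ethanol, acetate and lactate had log2 fold changes slightly below 0. Of the 18 genes on the list for gluconeogenesis and the glyoxylate cycle, 0 were called and 18 had log2 fold changes below 0. Their median was -0.15 beside -0.04 over all rows, and of all 6339 rows 4194 lay below 0. The list also holds JEN1, CYB2 and DLD1 for lactate, ADY2 for acetate and the malic enzyme MAE1. Its member ACO1 is on the TCA cycle list too. ICL1, isocitrate lyase, reached 2671 and 6173 FPKM in U and 1760 and 6760 FPKM in S, so that the strains overlapped. MLS1, malate synthase, had a log2 fold change of -0.20 (SE 0.48). Of the 9 genes for aldehyde and acetate, 0 were called and 9 lay below 0 (median -0.20), with ACS1, acetyl-CoA synthetase, at -0.28. The 18 genes of the TCA cycle lay below 0 as well (median -0.10), with 0 called and CIT1, citrate synthase, at -0.13. Among the 35 genes for respiratory complexes and ATP synthase, 29 lay below 0 and 0 were called (median -0.07), and 18 of the 35 had both S libraries below both U libraries, beside 14.3% of all rows. ATP15, a subunit of ATP synthase, had 6156 and 6861 FPKM in U against 5293 and 5593 FPKM in S (log2 fold change -0.26, SE 0.18). With median-of-ratios scaling or quantile normalization the median of all rows moved from -0.04 to 0.00, and the medians of these 4 lists stayed below 0. The gluconeogenesis median turned to 0.07 when replicate 1 of S at 12 h was left out and to 0.00 for replicate 2 of U. The activators of these genes had a median of -0.02 (0.01 with median-of-ratios scaling) with 0 of 11 called, and HAP4 was at -0.19, ADR1 at -0.19 and SIP4 at -0.20.

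Sugar uptake and branches of glycolysis were also examined. Of the 16 tested hexose transporters and sensors, 0 were called and 8 lay above 0 (median 0.00), with HXT7, a high-affinity transporter, at -0.37 (SE 1.11). In the glycerol branch 0 of 8 genes were called. GPD1, the glycerol-3-phosphate dehydrogenase that leaves glycolysis at dihydroxyacetone phosphate, stood at 459 and 544 FPKM in the U libraries and at 760 and 847 FPKM in the S libraries (log2 fold change 0.68, SE 0.77). The SE of GPD1 also carries the spread at 6 h, with 413 and 110 FPKM in U and 543 and 143 FPKM in S. GPP1, the phosphatase of the next step, reached 44.6 and 43.9 FPKM in U and 113 and 58.5 FPKM in S (0.86, SE 0.35), and GPD2 had 0.33 (SE 0.13). These 3 of the 8 had both S libraries above both U libraries, beside 6.36% of all rows, and none passed the test. The pentose phosphate pathway had a median of -0.03 with 0 of 11 called, and TAL1, transaldolase, had 0.20 (SE 0.19). Trehalose and glycogen genes had a median of -0.05 with 0 of 16 called, with GPH1, glycogen phosphorylase, at 0.32 (SE 1.28).

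Lists for growth had medians slightly below that of all rows (-0.04), and the medians for stress lay near it. Cytosolic ribosomal proteins had a median of -0.11 with 0 of 135 called, ribosome biogenesis -0.07 with 0 of 49 and translation factors -0.11 with 0 of 15. The counts for ribosomal proteins include RPP1 (-0.11), a subunit of RNase P and not a ribosomal protein. The general stress response had -0.01 with 0 of 23 called and targets of the heat shock factor -0.04 with 0 of 22. Of the ribosomal proteins 125 lay below 0, of ribosome biogenesis 36 and of translation factors 14, beside 4194 of all 6339 rows. In the stress and heat shock lists 13 each lay below 0. The growth medians were of like size to those of the TCA cycle (-0.10) and the respiratory list (-0.07). The median of the ribosomal proteins ran from -0.43, without replicate 1 of U at 12 h, to 0.23, without replicate 2 of U, and was 0.05 without replicate 1 of S. That of the stress list moved over the same omissions in U, to 0.30 without replicate 1 and to -0.30 without replicate 2. The scalings turned the stress and heat shock medians to between 0.00 and 0.03. The 10 histone genes all lay below 0, with a median of -0.17 and 0 called, and 5 of them had both S libraries below both U libraries, beside 14.3% of all rows. The histone median stayed below 0 without any 1 of the 12 h libraries (-0.36 to -0.08). HTA2, a histone H2A gene, had 240 and 233 FPKM in U against 172 and 162 FPKM in S (log2 fold change -0.50, SE 0.16). Its groups did not overlap, and it did not pass the test.

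**Figure D4:**
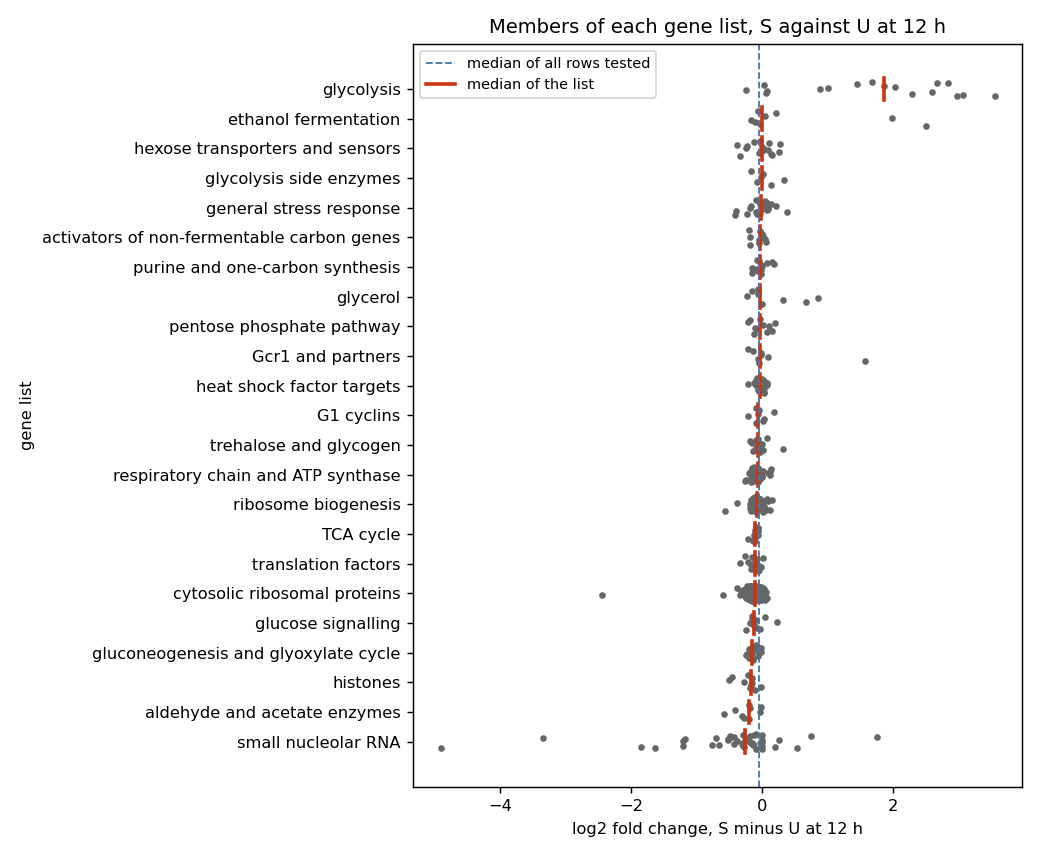
Each point is a tested member of a gene list at its log2 fold change of S against U at 12 h, with a red line at the median of the list and a dashed line at the median of all rows (-0.04). The glycolysis list has its median at 1.87, PDC1 and ADH1 stand apart from the other fermentation genes, and the other medians shown lie between -0.25 (small nucleolar RNA) and 0.01.

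The genes beside the glycolytic genes were examined next. Of the 40 tested neighbours of the 17 glycolysis genes, PDC1, ADH1 and GCR1, 0 were called, 21 lay above 0 and the median was 0.00. Both S libraries were above both U libraries in 8 of the 40 and below them in 0, beside 6.36% and 14.3% of all rows. Besides GPI2, the neighbour YGR240C-A, a reading frame 842 bases upstream of PFK1 on the same strand, stood out, and it was chosen after its values were seen. It stood at 9.49 and 13.7 FPKM in the U libraries and at 30.6 and 44.3 FPKM in the S libraries (log2 fold change 1.61, SE 0.26, adjusted p = 0.261). DET1, 583 bases upstream of TPI1 on the same strand and also chosen after its values were seen, had 0.39 (SE 0.13, adjusted p = 1).

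The ends of the comparison were unlike in kind. Of the 15 rows with the highest log2 fold changes (1.69 to 3.56), at a mean of at least 10 FPKM, with no library at 0 at 12 h and groups that did not overlap, 12 were genes of glycolysis or ethanol formation. The other 3 were YAL037C-B, YKL153W and YCR013C, dubious reading frames known to overlap CDC19, GPM1 and PGK1. They are not in the annotation used, and the sources used here do not state whether counting used strand, so their reads cannot be told apart from those of their partners. YAL037C-B reached 80.8 and 142 FPKM in U and 1343 and 1205 FPKM in S (log2 fold change 3.56, adjusted p = 0.0159). All 15 rows at the low end (-1.86 to -0.60) were shorter than 300 bases or not in the annotation used, as were 12.2% of all rows tested, and 0 of them were called. The lowest was YCR095W-A, a reading frame of 159 bases, with 45.2 and 33.6 FPKM in U and 7.16 and 13.96 FPKM in S (log2 fold change -1.86, adjusted p = 0.543).

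The remaining called rows rested on values of 0. At 12 h YCR038W-A had values of 0 in U and of 33.7 and 33.8 FPKM in S (adjusted p = 0.000955). At 6 h it was the other way round, with 33.7 and 33.8 FPKM in U and 0 in both S libraries. SNR128, a small nucleolar RNA that guides modification of ribosomal RNA (chromosome X from 139566 to 139691), was the single row called lower in S, with 18.1 and 45.7 FPKM in U and 0 in the S libraries (adjusted p = 0.029). Of the 6339 rows tested, 196 were listed at 0 in some library. Whether a 0 here is a failed estimate was not tested. Without such rows limma called 6 rows, all higher in S. Of 44 tested small nucleolar and related small RNAs, 36 lay below 0 (median -0.25), and libraries of selected poly(A) RNA hold such RNA only in part. The part of this in the difference was not tested.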

How the data were processed

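The authors deposited FPKM values, 1 per row and library, for 7126 rows. Per the submitters' processing notes reads were handled with TopHat2 2.1.1, Cufflinks, FastQC 0.10.1 and bcl2fastq 1.8.2 on sacCer3, and per the labels' protocols hot phenol RNA was made into TruSeq Stranded mRNA libraries and read in pairs of 100 cycles on a HiSeq2500. The sources used here do not give the version, settings or gene models of Cufflinks. Of the rows, 6048 were matched to RefSeq R64 by locus tag, 114 by symbol and 964 not at all.

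Rows that averaged 1 FPKM or more in the 8 libraries were tested as log2(FPKM + 1), so fold changes of low rows are understated. One fit of limma 3.58.1 with trend (R 4.3.3) to the 4 groups gave 4 residual degrees of freedom, with 2.33 more from the prior. All tests were two-sided, with Benjamini-Hochberg adjustment over all rows. The members and lists were chosen with earlier results of these data known, so lists are described by counts, medians and shares. The permutation test of the glycolysis share was the exception, and with 2 libraries a strain it cannot decide. Named genes were the called rows, the 15 at either end, all members of the glycolytic, fermentation and Gcr1 lists, neighbours, and the 4 largest differences of each other list. Alternatives were other pseudocounts (0.1 and 5 FPKM), filters, scalings, blocks, no trend, 12 h alone and each library left out.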

Additional observations from a re-analysis of the deposited data

Results flagged for a closer look

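The difference between the strains was tested against itself at the other time, and 5 rows passed limma's test of this difference. Every one had 0 FPKM throughout at least 1 group, and 0 of them are glycolysis genes. For SNR18, a small nucleolar RNA, the strain difference at 12 h minus that at 6 h was 12.09 on the log2(FPKM + 1) scale. It was listed at 4386 and 4361 FPKM in U at 6 h and at 0 in every other library. The difference was 10.23 for YCR038W-A, which was listed at 33.7 FPKM or 33.8 FPKM in the libraries of U at 6 h and of S at 12 h and at 0 in the other 4. YMR272W-A had 6.12, with 124 FPKM in both U libraries and 0 in both S libraries at 6 h, and 163 and 308 FPKM in U and 125 FPKM in both S libraries at 12 h. CPP3 had -3.76, listed at 0 in U and at 10.1 and 8.80 FPKM in S at 6 h, and at 29.4 and 30.6 FPKM in U and 22.8 and 22.7 FPKM in S at 12 h. PLS1 had -5.79, listed at 58.8 and 50.4 FPKM in S at 6 h and at 0 in the other 6 libraries. Whether a 0 here is a failed estimate was not tested.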

How the results depend on the processing

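The count of 8 rows called at 12 h became 2 with the replicate number as a block (CDC19 and YCR038W-A), 13 with a block within each time (added once the data were seen), 0 when the 12 h libraries were fitted alone (7 with the block in that fit, and 370 at an unadjusted p under 0.05), and 1 to 15 when 1 library was left out. The block within each time added ENO1 (adjusted p = 0.028), PDC1 (0.0335), SRD1 (0.028), YGR240C-A (0.0155) and YLR466C-B (0.0022), of which the last 3 also passed in the 12 h fit with the block. Deviations of libraries with the same number from their group means correlated at 0.64 at 6 h and 0.38 at 12 h, but no label says what a number shares. The count of 5 rows for the difference between the times became 9 with no filter, 0 without rows listed at 0 (also added later) and 2 to 13 when 1 library was left out. The glycolysis median of 1.87 ran from 1.60 to 2.22 without 1 library. Log2 fold changes of HXK1 (-0.53 to 0.68), GLK1 (-0.083 to 0.21) and PYK2 (-0.11 to 0.17) changed sign when a 12 h library was left out. Of 816 values of 41 genes under 20 settings, 6 changed direction, 70 lost and 8 gained a call. The cause of these changes was not tested. The number of fragments per library is unknown, so no limit can be set for values of 0, and 2 libraries a strain leave small differences undetectable.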

Other observations

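Libraries with the same replicate number stood together at 12 h in both strains for some genes. The standard deviation over rows of the log2 difference between replicates 1 and 2 was 0.502 in U and 0.52 in S. Of the 6339 rows tested, 85 differed at least 2-fold between the replicates in the same direction in both strains. Rows that differed in opposite directions were not counted. ADH2, the alcohol dehydrogenase of ethanol use, was 1 of the 85 rows, higher in replicate 2. General stress genes had a median log2 difference of replicate 1 minus 2 of 0.63 in U and 0.43 in S, and cytosolic ribosomal proteins of -0.68 and -0.34. The a-specific genes had 1.60 in U and 1.02 in S. The glycolysis list had -0.35 in U and 0.16 in S.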
